A study of Mus musculus with 6 samples.

Results

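The nuclear genes for subunits of the respiratory chain and of ATP synthase were described in liver endothelial cells of iron-adequate and iron-loaded mice. The genes were taken by name from the deposited expression table: symbols that start with Ndufa, Ndufb, Ndufc, Ndufs, Ndufv, Uqcr, Cox4 to Cox8 or Atp5, and Sdha, Sdhb, Sdhc and Sdhd. The names also bring in assembly factors such as Ndufaf1 and a few relatives of subunits, which were kept apart. Of 39179 genes in the table, 94 carried such a name; 1 name marked as a pseudogene was left out, and 83 of the other 93 reached 1 CPM (the authors' unit of reads over a scaled library size) in at least 3 of the 6 libraries. They comprised 35 genes of complex I, 4 of complex II, 8 of complex III, 12 of complex IV, 14 of complex V and 10 assembly factors and relatives.

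All mice were wild-type 129S6/SvEvTac males on a purified AIN-93G diet from 3 weeks of age, and were sampled 4 weeks later, at 7 weeks. Ferric citrate supplied the control-iron diet with 37 ppm of iron, and the high-iron diet contained carbonyl iron at 10000 ppm, so the form of iron differed between the diets as well as its amount. Each group had 3 biological replicates; the labels do not say whether a replicate was 1 mouse or a pool, and p-values measure the spread between these libraries. Cells were sorted as CD45-, CD31+, lineage-, MHCII-, CD64- and CD146+.

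The respiratory chain passes electrons from NADH (complex I) and succinate (complex II) through ubiquinone, complex III and cytochrome c to oxygen at complex IV. Complexes I, III and IV pump protons across the inner mitochondrial membrane, and complex V, the ATP synthase, uses their return to make ATP. Complexes I, III, IV and V are built from nuclear and mitochondrially encoded subunits, while all subunits of complex II are nuclear. Iron-sulfur clusters and heme carry the electrons, so the chain is among the main users of iron in a cell. Endothelial cells are known to draw much of their ATP from glycolysis.

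The libraries held between 12963510 and 21663543 reads in genes, and 3 reads corresponded to 0.139 to 0.231 CPM. All 14 endothelial markers were measured, with a summed level of 25993 to 27924 CPM in the control libraries and 24983 to 26295 CPM in the high-iron libraries. Of these 14, 4 were higher and 10 lower on high iron, and none was called. Markers of other cells were also present and differed between the diets. The 16 Kupffer cell and macrophage markers summed to 77.7 to 182 CPM in the controls and 269 to 537 CPM on high iron. All 15 tested were higher, each with an unadjusted p under 0.05 by limma, and 3 were called. The 11 lymphocyte and dendritic cell markers summed to 44.7 to 78.2 and 178 to 540.5 CPM. All 5 tested were higher, and 4 were called. Over all genes tested, 0.832% were called higher. The 18 hepatocyte markers summed to 362 to 1555 CPM in the controls and 842 to 1626 CPM on high iron. All 18 were higher, 3 with an unadjusted p under 0.05 by limma, and none was called. The 11 stellate cell and pericyte markers summed to 169 to 1150 and 357 to 1178 CPM (7 of 9 tested higher, 1 called). The 5 erythroid genes summed to 1003 to 3352 and 719 to 4068 CPM (2 of 5 higher, none called). The 6 stress-responsive genes that mark handling of the tissue summed to 135 to 244 and 127 to 156 CPM (none called). The part of these other signals in the results for the respiratory chain was not tested.

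No gene of the respiratory chain or ATP synthase passed the test between the diets across all genes. With limma on log2(CPM + 1) and Benjamini-Hochberg adjustment over the 12980 genes that reached the minimum level, 0 of the 83 genes were called, where 133 genes, or 1.02%, were called over all genes (0.832% higher and 0.193% lower). The smallest adjusted p-value among the 83 by limma was 0.219. An unadjusted p under 0.05 was reached by 6 of them, or 7.23%, against 12.1% of all genes; these 6 (Atp5sl, Ndufb4, Ndufa5, Atp5j2, Ndufa12 and Atp5k) were lower on high iron. On the recovered read counts, edgeR called 0 of the 83 (0.863% of all genes) and DESeq2 also called 0 (3.27% of all genes). An unadjusted p under 0.05 was reached by 11 of the 83 in edgeR (13.3%, against 12.2% of all genes) and by 15 in DESeq2 (18.1%, against 12.9%).

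Most of the genes had a slightly lower mean level on high iron. The log2 fold change, high over control iron, was negative for 73 of the 83 genes and positive for 10, with a median of -0.30 beside -0.0034 over all genes tested. It ran from -0.72 for Ndufb4 to 0.36 for Ndufa4l2, with standard errors of 0.12 to 0.38. In bulk RNA, fewer cells of a type and less RNA per cell cannot be told apart. The groups did not overlap for 5 genes that were lower (Ndufb4, Ndufa12, Atp5sl, Ndufaf3 and Ndufaf6; 6.02%, against 8.44% of all genes) and for 1 that was higher (Ndufs1; 9.46% of all genes were higher without overlap).

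**Figure D1:**
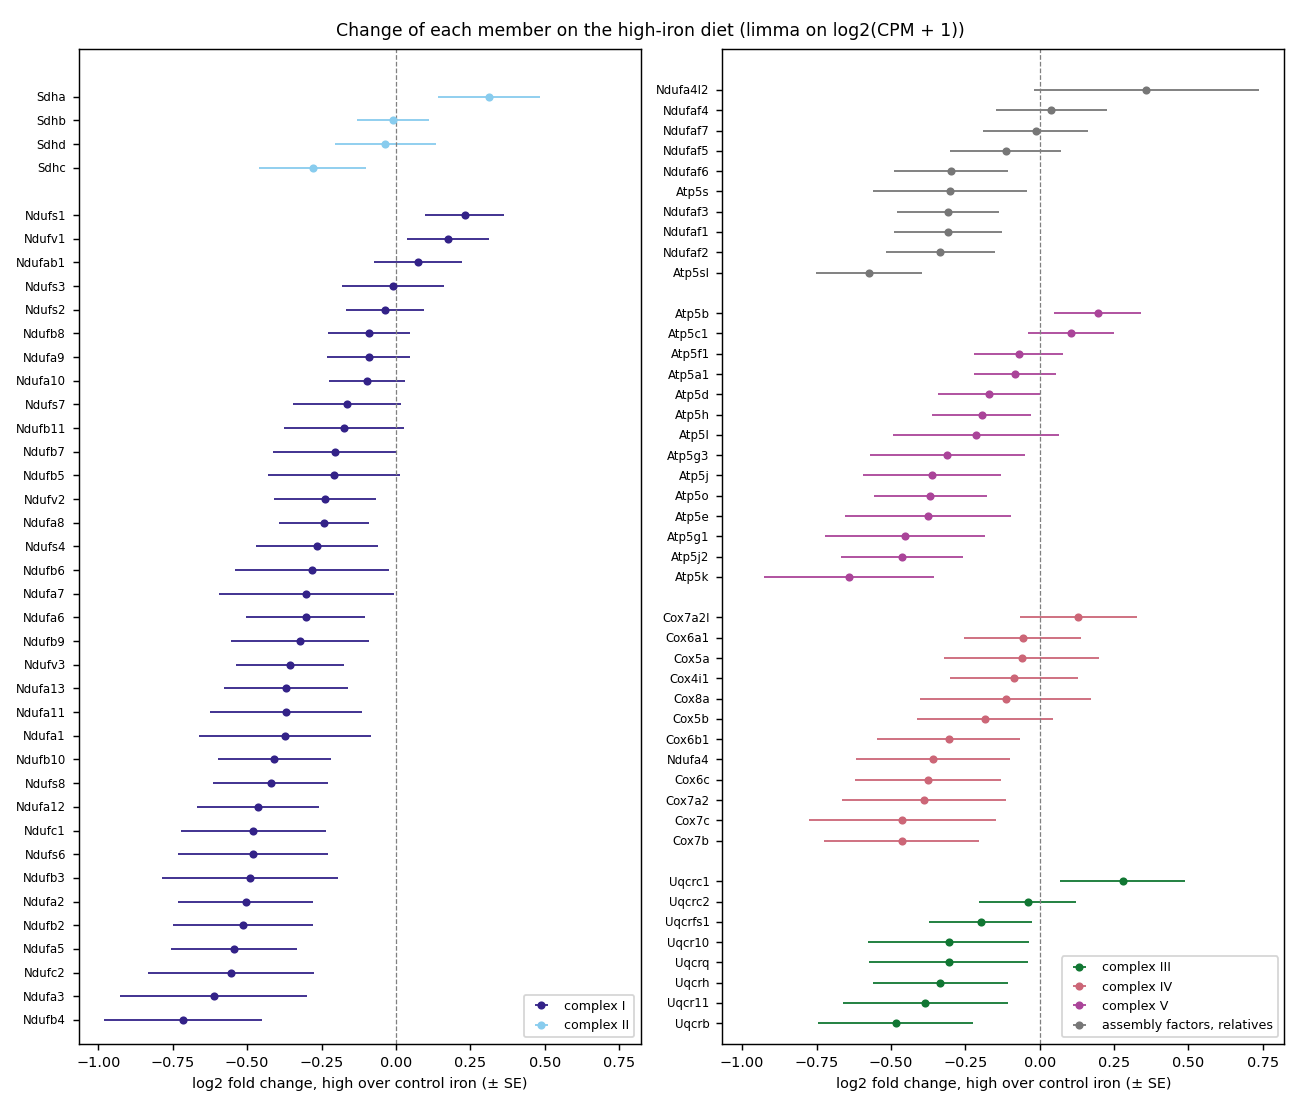
Log2 fold change of each of the 83 genes, high over control iron, on the log2(CPM + 1) scale; points are limma estimates from 3 libraries per group, bars are standard errors, and colours mark the complexes. Most points lie left of 0, between -0.72 and 0.36, and none passed the adjusted threshold.

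Complex I is the NADH dehydrogenase; its nuclear subunits comprise the core subunits that hold the flavin and the iron-sulfur clusters, and a larger set of accessory subunits. All 35 of the complex I genes together gave a median log2 fold change of -0.30, with 32 lower. The 7 core genes had a median of -0.04, with 5 lower, and the 28 accessory genes a median of -0.36, with 27 lower. Ndufs1 (chr1:63143596-63176833, minus strand, mm10), the largest core subunit and a carrier of iron-sulfur clusters, measured 62.0, 60.2 and 54.0 CPM in the 3 control libraries and 73.4, 63.6 and 70.5 CPM in the high-iron libraries. Every high-iron library lay above every control library, yet the log2 fold change of 0.23 ± 0.13 (SE) had an adjusted p of 0.512 by limma. Small stretches of its exons (6.16%) are shared with genes on the opposite strand, which these unstranded libraries cannot separate.

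Ndufv1, which binds NADH and the flavin, measured 102, 113 and 86.7 CPM in the controls and 117, 107 and 115 CPM on high iron, a log2 fold change of 0.18 ± 0.14. Its partner Ndufv2 measured 111, 139.6 and 175 CPM in the controls and 121, 108 and 125 CPM on high iron, a log2 fold change of -0.24 ± 0.17. The groups of both genes overlapped, and the third control library was the lowest of the 6 for Ndufv1 and the highest for Ndufv2. Ndufs7 and Ndufs8, which carry the clusters nearest to the quinone site, were also highest in that library. Ndufs7 measured 91.9, 129.98 and 152 CPM in the controls and 110.3, 101 and 115 CPM on high iron. Ndufs8 measured 115, 164 and 196 CPM in the controls and 128, 102 and 117 CPM on high iron, and its log2 fold change of -0.42 ± 0.19 had an adjusted p of 0.425 by limma. Over the 7 subunits of complexes I, II and III that carry iron-sulfur clusters, 5 had a lower mean on high iron, the median log2 fold change was -0.17 and none was called.

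The accessory subunit Ndufb4 (chr16:37647170-37654453, minus strand) had the most negative log2 fold change of the 83 genes. It measured 13.0, 19.1 and 28.9 CPM in the control libraries and 12.9, 10.6 and 10.8 CPM on high iron. The groups did not overlap, but the first control library and the first high-iron library were nearly equal, and the log2 fold change of -0.72 ± 0.27 had an adjusted p of 0.323 by limma. Ndufa8, an accessory subunit of the intermembrane space, was the most abundant complex I gene per length, with a mean RPKM (CPM per kilobase of the deposited gene length) of 221. Rankings per length, here and below, rest on the deposited lengths and could change with other transcript lengths. Ndufa8 measured 173, 198 and 249 CPM in the controls and 178, 165 and 175 CPM on high iron, with a log2 fold change of -0.24 ± 0.15. Ndufa3 had the widest gap of the complex I genes between control libraries 1 and 3, 2.84-fold, with 70.1, 116 and 199 CPM in the controls and 88.7, 62.8 and 80.5 CPM on high iron. Ndufab1, the mitochondrial acyl carrier protein, was the accessory gene with a positive log2 fold change, 0.07 ± 0.15, from 26.1, 26.4 and 24.9 CPM in the controls and 25.4, 28.4 and 27.9 CPM on high iron.

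Complex II, the succinate dehydrogenase, had a median log2 fold change of -0.02 over its 4 genes. Sdha (chr13:74322254-74350280, minus strand), the flavoprotein that oxidizes succinate, measured 250.1, 231 and 160.3 CPM in the controls and 245, 275 and 264 CPM on high iron. The groups overlapped through the first control library, and the log2 fold change of 0.31 ± 0.17 had an adjusted p of 0.498 by limma. Sdhb, the iron-sulfur subunit, was level across the libraries, with 113, 129 and 125 CPM in the controls and 126, 116 and 122 CPM on high iron. Sdhc and Sdhd anchor the enzyme in the membrane and bind its heme. Sdhc measured 80.8, 105 and 125 CPM in the controls and 84.8, 72.0 and 95.9 CPM on high iron, a log2 fold change of -0.28 ± 0.18. Sdhd, the most abundant of the 4 per length at 73.8 RPKM, measured 77.8, 105 and 105 CPM in the controls and 96.2, 78.3 and 106 CPM on high iron. Their groups overlapped too. Summed over the complex, the level was 522, 570.1 and 515 CPM in the controls and 552, 542 and 588 CPM on high iron.

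Complex III, the cytochrome bc1 complex, had a median log2 fold change of -0.31, with 7 of its 8 genes lower. Uqcrc1 (chr9:108936633-108949623, plus strand), a large core-like subunit on the matrix side, was the exception and also the most abundant per length, at 174 RPKM. It measured 303, 304 and 177 CPM in the controls and 271, 323 and 333 CPM on high iron, with a log2 fold change of 0.28 ± 0.21 and an adjusted p of 0.609 by limma. Uqcrb, a small subunit near the quinone site, was highest where Uqcrc1 was lowest, in the third control library, with 53.8, 79.4 and 124 CPM in the controls and 66.8, 52.1 and 54.8 CPM on high iron. Its log2 fold change was -0.48 ± 0.26. Uqcrfs1, the Rieske iron-sulfur protein, measured 79.4, 109.6 and 125 CPM in the controls and 96.2, 84.4 and 88.8 CPM on high iron, a log2 fold change of -0.20 ± 0.17.

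Complex IV, cytochrome c oxidase, had a median log2 fold change of -0.24, with 11 of its 12 genes lower. Cox6a1 (chr5:115345642-115348981, minus strand) was the most abundant of the 83 genes per length, with a mean of 409.8 RPKM. It measured 325, 358 and 545 CPM in the controls and 359, 358 and 437 CPM on high iron, a log2 fold change of -0.06 ± 0.20. Cox4i1, the largest nuclear subunit of the complex, measured 235, 359.8 and 433 CPM in the controls and 306, 277 and 359.9 CPM on high iron. Cox7b had the most negative log2 fold change of the complex, -0.46 ± 0.26 with an adjusted p of 0.506 by limma, from 27.3, 41.4 and 61.7 CPM in the controls and 33.2, 25.9 and 30.1 CPM on high iron. Ndufa4, once assigned to complex I and now counted in complex IV, measured 113, 159.7 and 263 CPM in the controls and 135, 116 and 143 CPM on high iron. All of these genes were highest in the third control library. Cox7a2l, a factor in the joining of complexes III and IV into supercomplexes, was the gene of complex IV with a positive log2 fold change. It measured 32.2, 47.8 and 48.1 CPM in the controls and 41.9, 41.7 and 55.9 CPM on high iron, and its value of 0.13 ± 0.20 was within the spread.

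The tissue-specific forms of complex IV subunits were at or near 0. Cox4i2, Cox6a2, Cox6b2, Cox7a1, Cox7b2, Cox8b and Cox8c did not reach 1 CPM in any library; Cox8c had no read in any, which allows up to 0.139 to 0.231 CPM by counting error alone. Cox6b2 came closest to the minimum, with 0.16, 0.65 and 0.97 CPM in the controls and 0.31, 0.41 and 0.85 CPM on high iron, beside Cox6b1 with 93.5, 143 and 202 and 119, 100.5 and 119 CPM. Cox4i2 measured 0.104, 0.325 and 0 CPM in the controls and 0, 0.118 and 0.0769 CPM on high iron. Cox7a1 measured 0.364, 0.232 and 0.228 CPM in the controls and 0.308, 0.177 and 0.154 CPM on high iron. Cox6a2 had no read in any control library and measured 0.154, 0 and 0.0769 CPM on high iron. Per length, the lung-enriched form Cox4i2 made up 0.0948 ± 0.0954% (SD, n = 3) of the 2 forms in the controls and 0.0450 ± 0.0450% on high iron. The heart and muscle form Cox7a1, beside Cox7a2, made up 0.636 ± 0.446% and 0.558 ± 0.171%, and Cox6a2, beside Cox6a1, 0 and 0.0298 ± 0.0318%. These shares rest on at most 7 reads of the rarer form in a library. Cox7a2 itself measured 65.6, 102 and 159 CPM in the controls and 87.8, 64.8 and 83.0 CPM on high iron.

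Ndufa4l2, a relative of Ndufa4 known as a target of hypoxia-inducible factor, was near the minimum level, with 0.47, 3.30 and 1.37 CPM in the controls and 1.49, 2.65 and 2.46 CPM on high iron. Its share beside Ndufa4 was 0.506 ± 0.466% in the controls and 0.860 ± 0.298% on high iron. The 4 shares were compared by two-sided exact permutation test, which cannot go below p = 0.1 with 3 libraries against 3 and so could not reach the threshold. The p was 0.3 for Ndufa4l2, 0.4 for Cox6a2, 0.5 for Cox4i2 and 0.9 for Cox7a1, and the adjusted values were 0.667 for the first 3 and 0.9 for Cox7a1.

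Complex V, the ATP synthase, had a median log2 fold change of -0.26, with 12 of its 14 genes lower. The 5 genes of the F1 head, where ATP is made, had a median of -0.08, with 3 lower, and the 7 genes of the stalks and the membrane part, apart from the c ring, a median of -0.36, with all 7 lower. Atp5b (chr10:128083273-128090391, plus strand), the catalytic beta subunit, measured 471, 513 and 386 CPM in the controls and 478, 540.2 and 543 CPM on high iron. Its log2 fold change of 0.20 ± 0.15 had an adjusted p of 0.608 by limma, and the groups overlapped through the second control library. Atp5a1, the alpha subunit and the most abundant of the complex per length at 146 RPKM, measured 392, 483 and 404 CPM in the controls and 386, 383 and 436 CPM on high iron. Atp5k, a small membrane subunit, had the most negative value of the complex. It measured 23.8, 34.97 and 57.6 CPM in the controls and 27.6, 19.3 and 22.9 CPM on high iron, with a log2 fold change of -0.64 ± 0.29 and an adjusted p of 0.412 by limma.

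The c ring, whose rotation drives the synthase, is made of 1 protein encoded by 3 genes. Atp5g3 carried most of the reads, with 101, 162 and 229 CPM in the controls and 136, 105 and 138 CPM on high iron. Atp5g1 measured 5.35, 6.87 and 11.7 CPM in the controls and 5.39, 5.25 and 5.23 CPM on high iron, so that the groups overlapped only at the lowest control. Atp5g2 stayed under the minimum, with 0.468, 0.279 and 0.797 CPM in the controls and 0.359, 0.413 and 0.308 CPM on high iron. Atp5l, the subunit g gene, passed the minimum in exactly 3 libraries, with 0.83, 1.49 and 2.05 CPM in the controls and 1.54, 0.83 and 0.92 CPM on high iron.

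The 8 assembly factors had a median log2 fold change of -0.30, with 7 lower. Atp5sl (chr7:25619414-25625551, plus strand), named after a relative of an ATP synthase factor and known to act in complex I assembly, had the smallest p-value of the 83 genes. It measured 16.7, 16.6 and 17.4 CPM in the controls and 12.5, 9.55 and 11.2 CPM on high iron. The controls lay close together and above every high-iron library, and the log2 fold change of -0.57 ± 0.18 had an adjusted p of 0.219 by limma. Ndufaf3 measured 19.2, 25.6 and 24.6 CPM in the controls and 18.9, 17.9 and 18.3 CPM on high iron, and Ndufaf6 measured 10.1, 10.1 and 11.96 and 9.65, 7.78 and 8.23 CPM. For both genes the groups were apart by a narrow margin.

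For most of the genes the control libraries differed widely among themselves. Control library 3 held the highest of the 6 values for 62 of the 83 genes, or 74.7%, where it held the highest for 27.3% of all genes tested, and control library 1 was the lowest control for 70 genes, or 84.3%, against 36.3% of all genes. Relative to each gene's mean over the 6 libraries, the median gene stood at -0.26, 0.18 and 0.53 on the log2 scale in control libraries 1, 2 and 3, and at -0.07, -0.28 and -0.06 in the high-iron libraries. The median of all genes tested was within 0.02 of 0 in each library. Without control library 3, the median log2 fold change of the 83 genes was -0.09, with 59 lower and 1 at an unadjusted p under 0.05 (8.82% of all genes). Without control library 1 it was -0.47, with 75 lower, 53 genes (63.9%, beside 20.7% of all genes) at an unadjusted p under 0.05 and none called, the smallest adjusted p being 0.064 by limma.

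**Figure D2:**
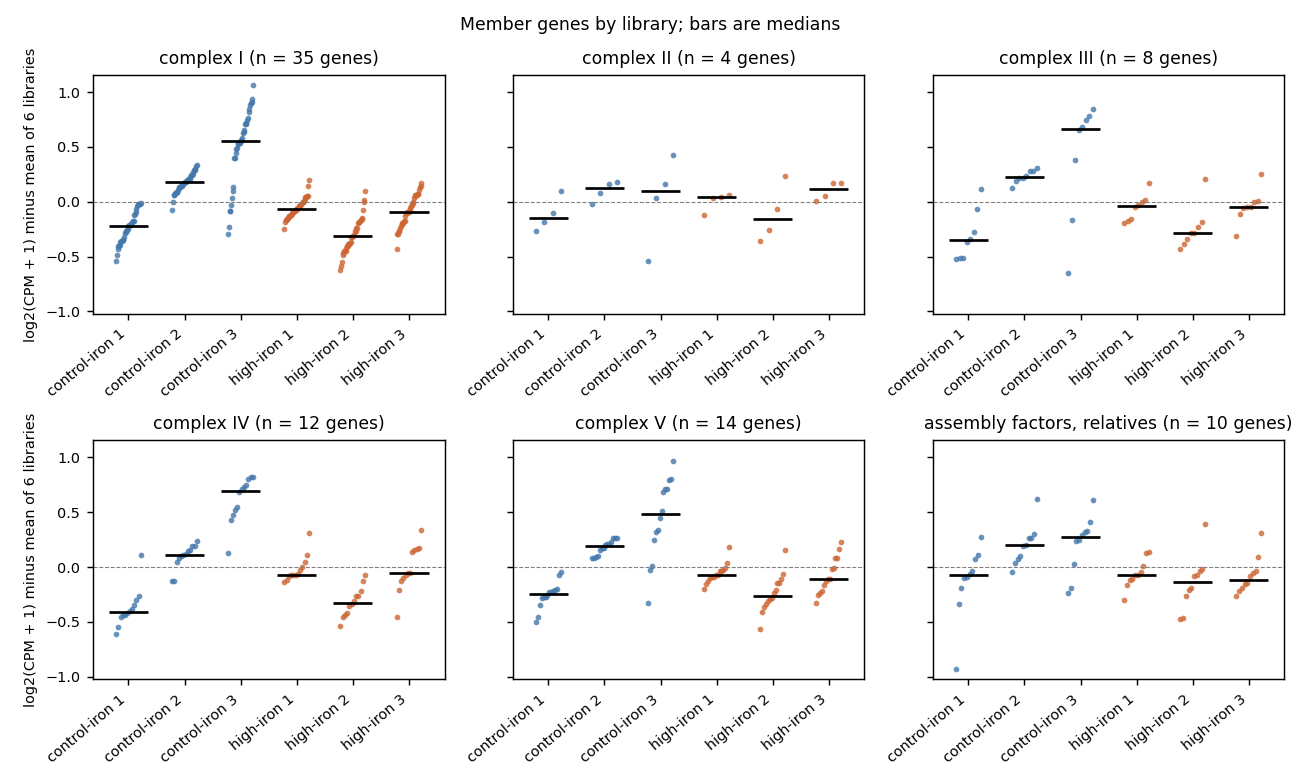
Each gene's log2(CPM + 1) in each library minus its mean over the 6 libraries, by complex; points are genes, bars their medians, blue the control-iron and orange the high-iron libraries. Control library 3 has the highest median in complexes I, III, IV and V (0.55, 0.67, 0.70 and 0.48), and the median of control library 1 is below 0 in every panel.

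Summed over the 83 genes, the level was 6619, 8596 and 10124 CPM in the controls and 7470, 6789 and 7843 CPM on high iron. The high-iron mean was 0.87 times the control mean, and the groups overlapped; the fold was 0.97 without control library 3. By complex, the fold of the summed CPM was 0.81 for complex I, 1.05 for complex II, 0.90 for complex III, 0.86 for complex IV and 0.91 for complex V. Without control library 3 the fold for complex IV turned to 1.05. The 80 ribosomal protein genes summed to 2308, 3304 and 4023 CPM in the controls and 3038, 2692 and 3448 CPM on high iron. They too were lowest in control library 1 and highest in control library 3. Their coding lengths were not examined.

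The position of a gene in control library 3 went with the length of its coding sequence. Subunits with a coding sequence under 600 bases numbered 53; 49 of them were highest in control library 3, 51 were lower on high iron, and their median log2 fold change was -0.33. The 20 longer subunits were highest in control library 3 in 8 cases, 14 were lower, and their median was -0.06. The split ran the same way over all genes: of the 1502 tested genes under 600 bases, 54.7% were highest in control library 3 and the median log2 fold change was -0.14, while of the 10101 longer genes 21.2% were highest there and the median was 0.02. Core and F1 subunits are mostly long and accessory and membrane subunits short, with median coding lengths of 789 and 894 against 420 and 324 bases, so role and length cannot be told apart here.

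Across the 83 genes, the deviation in control library 3 had a Spearman correlation with coding length of -0.80, and that in control library 1 one of 0.65. In high-iron libraries 1, 2 and 3 the correlations were 0.25, 0.61 and 0.39, and in control library 2 it was -0.21. Across all 11603 genes the order differed, with 0.33, -0.34 and -0.21 in control libraries 1, 2 and 3. In high-iron libraries 1, 2 and 3 the values across all genes were -0.05, 0.29 and -0.02. The log2 fold change itself had a correlation of 0.57 with coding length across the 83 genes and of 0.15 across all 11603 tested genes with a coding length. These are descriptions across genes that share the same 6 libraries, and genes are not independent replicates. When the trend with coding length over all genes was removed from each library, a step chosen after seeing the data, the median log2 fold change of the 83 genes became -0.17 beside -0.03 over all genes. None was then called, and 12 (14.5%) had an unadjusted p under 0.05, against 14.2% of all genes.

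**Figure D3:**
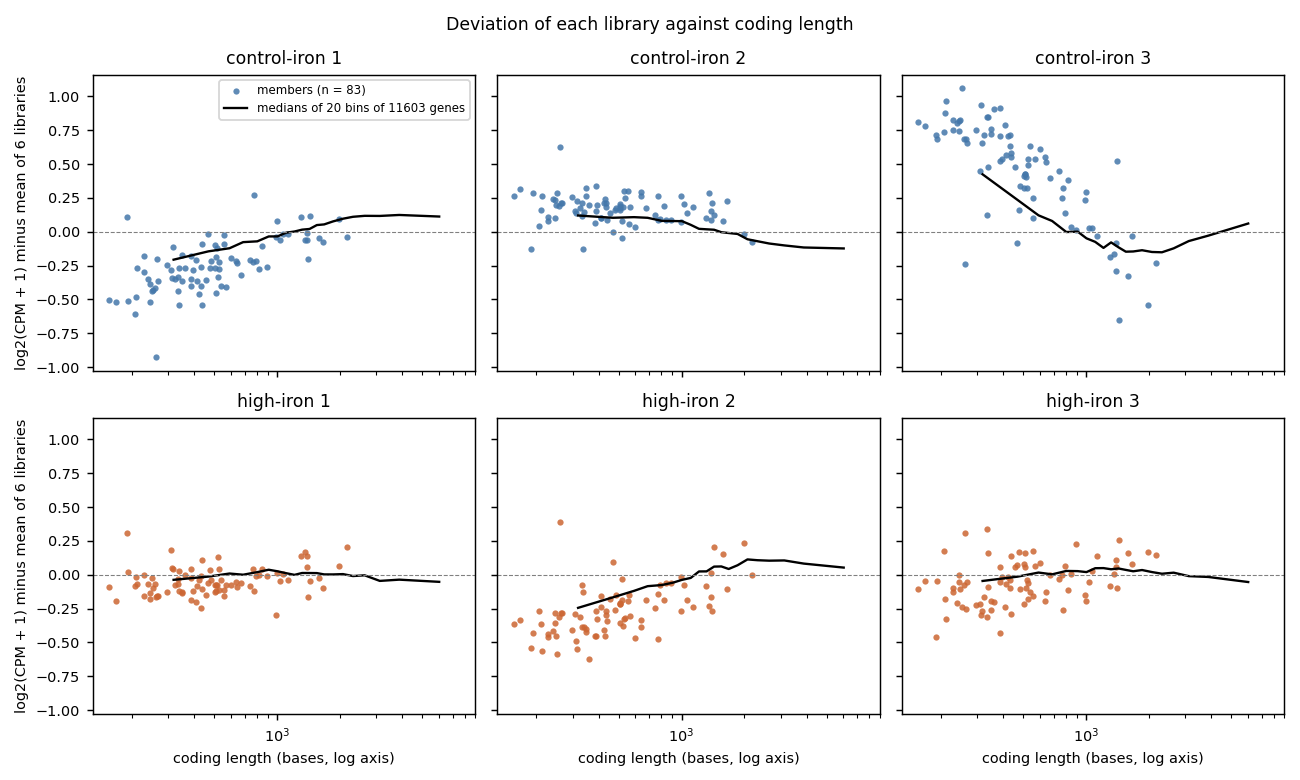
Deviation of each of the 83 genes from its mean over the 6 libraries, on the log2(CPM + 1) scale, against coding length on a log axis, 1 panel per library; the black line joins medians of 20 bins of 11603 tested genes. The points fall with length in control library 3 (Spearman correlation -0.80) and climb with length in control library 1 (0.65).

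Several subunit genes have near-identical copies elsewhere in the genome, most of them processed pseudogenes, and for some the deposited table lists more reads at the copies than at the gene. Of the 93 genes, 22 had a copy that matched 50% or more of the coding sequence at 95% identity or better, and 7 of these had more CPM at the copies than at the gene. Atp5l2, among the 93 but under the minimum level, had no coding sequence and was not searched. GENCODE M21 lists it as a processed pseudogene, and it was itself found as a copy of Atp5l. Subunit genes with a copy had a median of 31.7 CPM, and those without one 99.3 CPM. Ndufs5, an accessory subunit of complex I, measured 0.73, 0.60 and 0.80 CPM in the controls and 0.62, 0.24 and 0.23 CPM on high iron and so fell short of the minimum, while its processed pseudogene BC002163 had a mean of 27.2 CPM. The copy thus held 98.1% of the sum of both. Ndufs5 lies at chr4:123712710-123718202 on the minus strand and BC002163 at chr16:42955631-42955949 on the plus strand (mm10). Both coding sequences are shown, from the reference genome, because they differ in 2 of 318 bases. Those 2 bases are in capitals and both lie in the first 150 bases, which are printed.
Ndufs5: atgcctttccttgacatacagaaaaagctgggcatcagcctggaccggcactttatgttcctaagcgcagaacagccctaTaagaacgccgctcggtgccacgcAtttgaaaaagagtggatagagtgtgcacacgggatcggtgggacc
BC002163: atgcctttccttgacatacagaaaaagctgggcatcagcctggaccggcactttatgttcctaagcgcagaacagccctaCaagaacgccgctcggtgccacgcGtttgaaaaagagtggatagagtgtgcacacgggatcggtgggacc

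For Cox7c, a short subunit of complex IV (chr13:86044816-86046904, minus strand), the reference coding sequence of 189 bases is the same, base for base, as that of the processed pseudogene Gm12338 (chr11:75599763-75599954, minus strand). It is printed once for that reason.
Cox7c and Gm12338: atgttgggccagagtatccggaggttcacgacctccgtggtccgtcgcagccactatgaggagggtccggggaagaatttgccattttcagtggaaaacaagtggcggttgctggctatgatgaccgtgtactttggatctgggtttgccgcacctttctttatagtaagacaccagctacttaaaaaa

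Cox7c measured 3.90, 3.16 and 6.44 CPM in the controls and 4.62, 2.12 and 2.31 CPM on high iron, and 68.8% of the CPM summed over the gene and its copies was listed at the copies. The share at the copies was 82.8% for Atp5g2, 79.3% for Atp5g1, 69.5% for Ndufa12, 58.5% for Atp5l and 53.0% for Atp5h. How reads that match several places were counted is not given in the sources used here, so the levels of these genes are uncertain. With each gene and its copies added into 1 value, a step chosen after seeing the data, Ndufs5 measured 23.0, 31.2 and 42.1 CPM in the controls and 26.1, 19.6 and 24.3 CPM on high iron. Its log2 fold change was then -0.41, with an adjusted p of 0.489 by limma. None of the 83 genes was called in that fit, and their median log2 fold change was again -0.30.

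**Figure D4:**
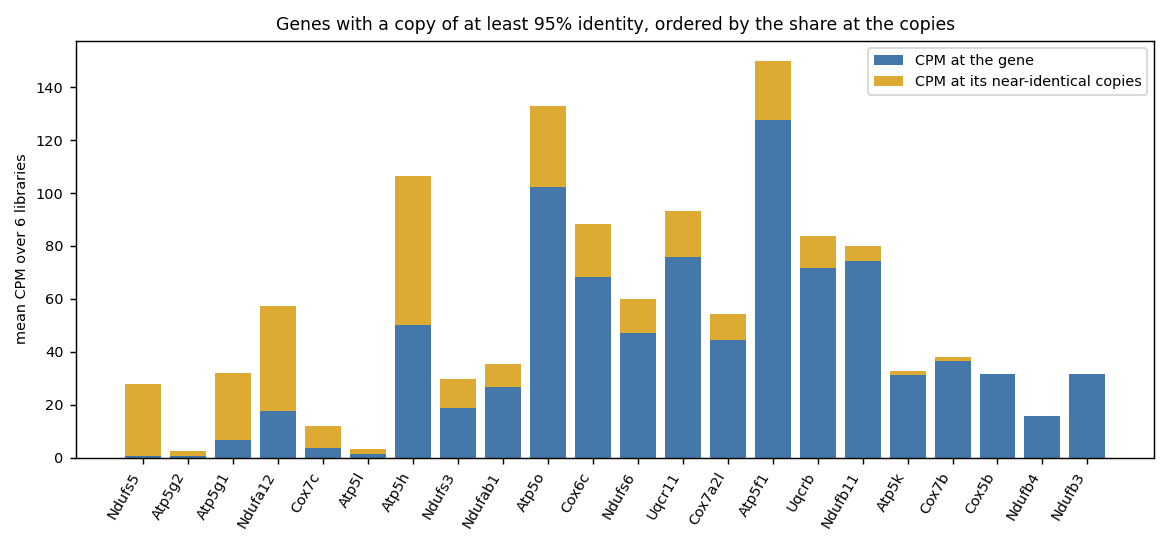
Mean CPM over the 6 libraries at each of the 22 genes with a near-identical copy (blue) and at its copies (yellow), stacked from 0 and ordered by the share at the copies. Ndufs5 stands first, with 98.1% of its sum at the copy, and 7 genes have more at the copies than at the gene.

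Nuclear respiratory chain genes are known for promoters that bind NRF-1, ETS-family factors such as GABP, and YY1. In the RefSeq promoter windows (250 bases before to 50 after the start, GRCm38.p6), 67 of the 83 genes were found. The NRF-1 motif (GCGC and TGCGC with any 1 base between them, either strand) was present in 17 of them, or 25.4%. It was present in 5.19% of all 27025 genes with such a window. Those 27025 genes were not filtered by level as the 83 were, so the shares cannot show an excess over other expressed genes. On both strands likewise, the ETS motif CCGGAAG was present in 17 (25.4%, against 9.93%), the YY1 motif AAGATGGC in 9 (13.4%, against 3.19%) and the TATA motif TATAAA in 5 (7.46%, against 15.7%). Genes with the NRF-1 motif had a median log2 fold change of -0.24 and the 50 without it one of -0.31. Their median coding lengths were 477 and 421.5 bases. With and without the motif, the median log2 fold change was -0.28 and -0.30 for ETS, -0.36 and -0.30 for YY1, and -0.21 and -0.31 for TATA. These differences were not tested. A match describes the letters only and shows no binding. The NRF-1 match with 10 bases on each side is shown for 1 gene in each complex where 1 was found, with the motif in capitals. The gene is the most abundant per length whose match, with those 10 bases, lay before its RefSeq start. Starts in other annotations can differ. The places are chr2:36049349-36049378, chr9:50603909-50603938, chr5:115349056-115349085 and chr5:108434430-108434459, all on the minus strand.
Ndufa8: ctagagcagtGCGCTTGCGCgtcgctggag
Sdhd: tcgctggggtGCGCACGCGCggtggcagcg
Cox6a1: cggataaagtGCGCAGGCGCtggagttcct
Atp5k: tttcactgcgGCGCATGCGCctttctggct

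The wider respiratory pathway gave the same count of 0. Of the 13 mitochondrially encoded subunits, 7 were tested and none was called, with a median log2 fold change of -0.01; mt-Co3, mt-Atp8 and mt-Nd4l were listed at 0 in every library and mt-Co2, mt-Atp6 and mt-Nd3 at no more than 1 read. mt-Co1, the catalytic subunit of complex IV, measured 9215, 12532 and 9255 CPM in the controls and 9981, 17190.2 and 12199 CPM on high iron. mt-Nd6, a complex I subunit, had a log2 fold change of -0.32 ± 0.24. The summed CPM of the nuclear genes divided by that of the mitochondrially encoded genes was 0.179, 0.162 and 0.174 in the controls and 0.178, 0.108 and 0.176 on high iron, so that only high-iron library 2 stood apart, where the mitochondrial sum was 63047 CPM beside 36987 to 58071 CPM in the other 5 libraries.

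Among 12 subunits and carriers with other names, 9 were lower, the median log2 fold change was -0.13 and none was called. Minos1, of the inner membrane organizing system, and Dmac1, a complex I assembly factor, had the smallest p-values there, with log2 fold changes of -0.47 ± 0.22 and -0.45 ± 0.25. Of 42 other assembly factors and chaperones, 38 were tested, 29 were lower, the median was -0.11 and none was called. Uqcc3, an assembly factor of complex III, measured 33.9, 42.7 and 56.8 CPM in the controls and 29.9, 25.2 and 28.4 CPM on high iron, and its log2 fold change of -0.63 ± 0.20 had an adjusted p of 0.220 by limma. Sdhaf1, which helps insert the iron-sulfur clusters of complex II, measured 8.83, 10.9 and 11.0 CPM in the controls and 8.47, 5.78 and 6.23 CPM on high iron, with a log2 fold change of -0.54 ± 0.21 and an adjusted p of 0.366 by limma. Both were lower without overlap between the groups, as were 8.44% of all genes tested.

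The 14 tested regulators of mitochondrial gene expression were split evenly, with 7 lower and 7 higher. Pprc1, a coactivator of the PGC-1 family, had a log2 fold change of -0.38 ± 0.17, and Polrmt, the mitochondrial RNA polymerase, one of 0.26 ± 0.16. Of the 13 enzymes of the citric acid cycle, 9 were higher, with a median of 0.12 and none called. Ogdh, of the oxoglutarate dehydrogenase complex, measured 191, 156 and 138 CPM in the controls and 176, 239 and 217 CPM on high iron, a log2 fold change of 0.38 ± 0.17 with an adjusted p of 0.398 by limma, while Dlst of the same complex had one of -0.17 ± 0.14. The 8 mitochondrial transporters and porins were split 4 to 4 with none called; the log2 fold change was 0.24 ± 0.22 for Ucp2 and -0.15 ± 0.15 for the ADP/ATP carrier Slc25a4.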

How the data were processed

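RNA from 6 sorts of liver endothelial cells, 3 per diet, was made into libraries with the SMARTer Ultra Low Input kit, per the labels' protocols. Such libraries carry no strand information. STAR, HTSeq and edgeR are listed in the submitters' processing notes together with the build mm10, without versions. Neither the annotation nor the counting settings are given in the sources used here. A normalized signal called CPM was deposited by the authors, and an RPKM table that equals CPM per kilobase of the deposited gene length. Of 114253 values above 0, 100% were whole reads within 0.001 read once divided by the library's step, so counts of 12963510 to 21663543 reads per library were recovered.

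From these, limma 3.58.1 (trend) was run on log2(CPM + 1) with diet as the only term, two-sided, for 12980 genes with at least 1 CPM in at least 3 libraries. Adjustment was by Benjamini-Hochberg with a threshold of 0.05. Fold changes on this scale understate changes of low genes. edgeR 4.0.16 and DESeq2 1.42.0 were run on the recovered reads, and other pseudocounts, filters, scalings, left-out libraries and a replicate block were tried. The scripts were tested on simulated data. There, 42.9% of genes given a log2 change of 1 in either direction were called, and 89.5% of those given 2. Of the 139 calls, 12 were false. Of the tested genes, 89.4% had a coding length in GENCODE M21 (GRCm38, C57BL/6J). Deposited lengths equal the merged exon lengths of M21 to the base for 0.119% of genes, so RPKM follows the deposited lengths. The size of the differences was not examined. Copies were found with BLAST+ 2.17.0.

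Full values are given for 32 genes picked by a rule (highest RPKM, largest and smallest fold change per complex, iron-sulfur or heme subunits, alternative forms, abundant genes without overlap) and for others named because they lead a count or have copies; Ndufa3, Ndufab1, Atp5l, Cox7c and the assembly factors were chosen after their values were seen. The genes and lists were chosen with earlier results of these data known. Two-sided exact permutation tests were used for isoform shares. Limits from 3 reads cover counting error only, while SE and SD measure the spread between libraries.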

Additional observations from a re-analysis of the deposited data

How the results depend on the processing

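None of the 83 genes was called in any of the 17 alternative fits (80 of them were tested at a CPM minimum of 5), and their median stayed negative, from -0.47 to -0.09. Calls over all genes moved from 133 to 34 with no filter on low values and to 424 with DESeq2, and ran from 27 to 183 when 1 library was left out (183, 88 and 53 without control library 1, 2 or 3, and 55, 43 and 27 without high-iron library 1, 2 or 3); the cause was not tested. Leaving out 1 library gave medians of -0.62 to -0.074 for complex III, the most negative without control library 1.

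With the replicate number as a block, 402 genes were called over all genes and 0 of the 83, of which 14 (16.9%, against 14.4% of all genes) had an unadjusted p under 0.05. The numbers were not taken as pairs: the deviations of same-numbered libraries correlated over genes at 0.13, 0.32 and 0.06, and control library 3 correlated better with high-iron library 1, at 0.20, than with its own number.

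Of the 32 genes picked by a rule, 27 were tested. Among these 27, the sign of a log2 fold change turned for 7, none of them called. Leaving out 1 library gave ranges of -0.14 to 0.011 for Atp5a1, -0.34 to 0.10 for Cox4i1 and -0.20 to 0.17 for Cox6a1. The ranges were -0.056 to 0.23 for Cox7a2l, -0.015 to 0.76 for Ndufa4l2, -0.064 to 0.030 for Sdhb and -0.18 to 0.085 for Sdhd. Without control library 1 the log2 fold change became -0.056 for Cox7a2l and -0.015 for Ndufa4l2. Without control library 2 it became 0.011 for Atp5a1, 0.030 for Sdhb and 0.036 for Sdhd. Without control library 3 it became 0.10 for Cox4i1, 0.17 for Cox6a1, 0.0057 for Sdhb and 0.036 for Sdhd. Without high-iron library 2 it became 0.019 for Sdhb and 0.085 for Sdhd, and without high-iron library 3 it became -0.0064 for Cox7a2l. With the coding-length trend removed it became 0.076 for Cox6a1 and 0.041 for Sdhd. Ndufab1, which was outside the rule, turned to -0.017 when its copies were added in.

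With 3 libraries per group and control libraries that differ this much, changes of the size seen here could not be told from the spread. For Ndufs5, Atp5g2 and Atp5l, the few reads listed at the gene in each library limit the values too. Of the CPM summed over each gene and its copies, 98.1%, 82.8% and 58.5% was listed at the copies.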
